A study of Mus musculus with 14 samples.

Results

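Among 8 mice that had run on a wheel, triceps muscle differed in its share of the IIa myosin heavy chain Myh2, and the sets, selected on that measured share, were the 4 mice above 3.5% and the 4 at or below it. The 8 runners were part of 14 male mice. They were FLExDUX4 mice, which carry a DUX4 transgene, or WT littermates, and each genotype had 6 weeks of voluntary wheel running (4 FLExDUX4 and 4 WT mice) or a control condition without wheel running (3 FLExDUX4 and 3 WT mice). Each mouse gave 1 library of 3′ mRNA reads from its triceps, and no agent other than the wheel is named in the labels. The labels do not give the promoter of the transgene, the age of the mice or the distance run. The level of the DUX4 transgene was not analysed here.

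The share was the Myh2 read count as a percentage of the summed counts of Myh7, Myh2, Myh1 and Myh4, the myosin heavy chains of type I, IIa, IIx and IIb fibres. The higher Myh2 set held WT runner 1 (10.8%), FLExDUX4 runner 2 (9.94%), WT runner 4 (8.06%) and FLExDUX4 runner 1 (4.47%). The lower Myh2 set held FLExDUX4 runner 3 (2.54%), WT runner 2 (2.03%), FLExDUX4 runner 4 (0.663%) and WT runner 3 (0.610%). Each set therefore had 2 mice of each genotype, and the mice on either side of the threshold were both FLExDUX4 runners, at 4.47% and 2.54%. In controls, the share was 1.28% to 1.76% in FLExDUX4 mice and 0.156% to 0.206% in WT mice. Since these counts chose the sets, differences between the sets are described and are not tested, and the 4 myosins are left out of the results.

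**Figure D1:**
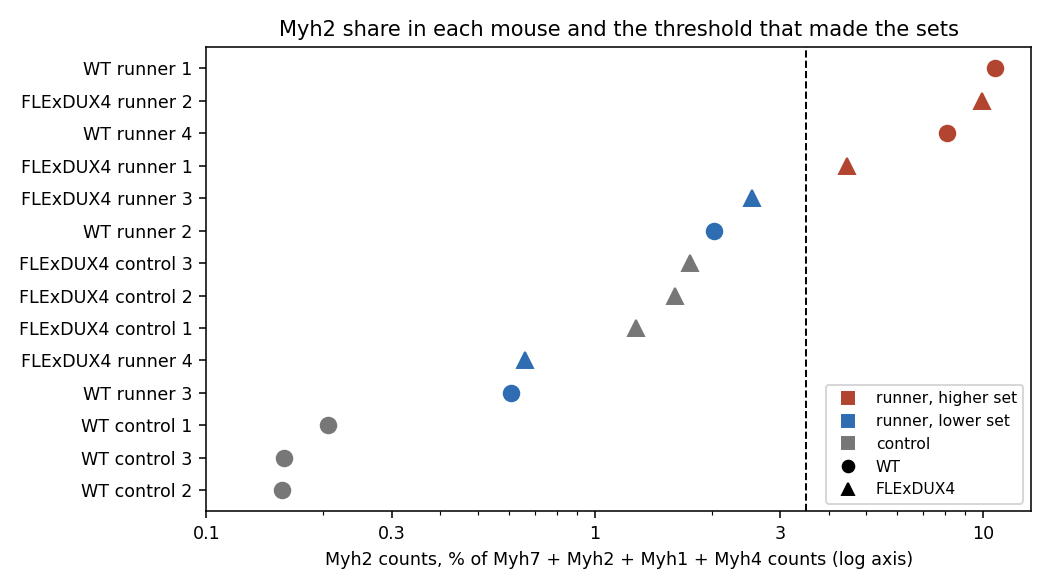
Myh2 counts as a percentage of the 4 adult myosin heavy chains (horizontal, log axis) in each of the 14 mice (vertical), with circles for WT, triangles for FLExDUX4 and a dashed line at 3.5%. The 4 runners above the line span 4.47% to 10.8%, and all 6 controls lie below 3.5%, at 0.156% to 1.76%.

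Muscle fibres are sorted by the myosin they carry. Slow type I and fast IIa fibres are rich in mitochondria and myoglobin and burn fat and pyruvate, while IIb fibres rely on glycogen and glycolysis and contract fastest. Endurance training is known to move fibres from IIb toward IIx and IIa, to raise mitochondrial enzymes and to add capillaries, and thick and thin filament proteins, calcium pumps and metabolic enzymes come in slow and fast versions that go with the myosin.

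A division into oxidative and glycolytic muscle is not borne out by the myosins themselves. Myh4, the IIb myosin, still made up 70.9% to 83.6% of the 4 myosins in the higher Myh2 set, against 88.4% to 96.5% in the lower set and 93.1% to 98.9% in controls. Every mouse was thus mostly of the IIb kind by this measure, and the sets are called by their Myh2 share only. The 4 myosins together took 1.50% to 2.35% of gene counts in the higher set and 2.53% to 2.94% in the lower set, with no overlap. In whole muscle, fewer fibres of a type and less RNA per fibre cannot be told apart.

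Sequencing depth did not separate the sets. Gene counts per library were 4087406 to 5884335 in the higher set, 3439957 to 6686356 in the lower set and 3269357 to 6995811 in controls, and spike-in RNA was 0.965% to 1.11% and 1.04% to 1.15% of counts in the higher and lower sets. Levels are given as CPM, counts scaled to a common library size with TMM factors, and 1 CPM stood for 3.33 to 7.79 reads. Transcripts of the mitochondrial genome took 30.8% to 39.8% of gene counts in the higher set, 26.6% to 33.6% in the lower set and 20.5% to 29.2% in controls. The range of the higher set reached above that of the lower set, and its part in the differences below was not tested beyond a fit with this share as a term.

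Of 10022 genes with enough counts in the runners, 300 (2.99%) were higher in all 4 mice of the higher set than in any mouse of the lower set, and 281 (2.8%) were lower in all 4. In the edgeR quasi-likelihood fit with genotype as a term, 42 genes (0.419%) were higher and 30 genes (0.299%) lower in the higher set at a Benjamini-Hochberg adjusted p under 0.05. Those calls are given as background only, because the sets came from counts of the same libraries, and nothing is read from them. Log2 differences are higher minus lower Myh2 set, with the standard error of the fit.

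Slow-fibre contractile genes lay furthest apart. Of 14 tested members of that list, 13 were above 0, 11 had sets without overlap in that direction and the median log2 difference was 2.03, against a median of 0.01 over all tested genes. Their summed level was 867 CPM in FLExDUX4 runner 1, 915 in WT runner 4, 1014 in WT runner 1 and 1265 in FLExDUX4 runner 2. It was 471 CPM in FLExDUX4 runner 3, 247 in WT runner 2, 216 in WT runner 3 and 137 in FLExDUX4 runner 4. Thus FLExDUX4 runner 3, the mouse closest below the threshold, was also the highest of the lower set on this sum. The exception was Sln, sarcolipin, an inhibitor of the calcium pump, at -0.89 ± 0.49 with overlapping sets.

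The thick filament light chains gave the widest gap. Myl2, the slow regulatory light chain (chromosome 5, 122100951 to 122113472, plus strand), stood at 84.1 and 67.1 CPM in WT runners 1 and 4 and at 63.4 and 105 CPM in FLExDUX4 runners 1 and 2. In the lower set it was 3.72 and 6.08 CPM in WT runners 2 and 3 and 29.4 and 0.853 CPM in FLExDUX4 runners 3 and 4. The sets did not overlap, and the log2 difference was 3.26 ± 0.92. Within the lower set the level ran from under 1 CPM to nearly 30, so that set was far from uniform. Myl3, the slow essential light chain (chromosome 9, 110741861 to 110769798, plus strand), was 180 to 246 CPM in the higher set and 4.55 to 83.0 CPM in the lower set, a difference of 2.81 ± 0.91.

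The slow troponins, which switch the thin filament on when calcium arrives, followed the light chains. Tnnt1, slow troponin T (chromosome 7, 4504570 to 4516382, minus strand), was 60.2 and 74.7 CPM in WT runners 1 and 4 and 64.6 and 92.1 CPM in FLExDUX4 runners 1 and 2, against 2.30 and 10.7 in WT runners 2 and 3 and 29.1 and 1.42 in FLExDUX4 runners 3 and 4. The gap was 2.94 ± 0.89 on the log2 scale, and no mouse of one set entered the range of the other. Tnni1, slow troponin I (chromosome 1, 135779434 to 135810989, plus strand), was 21.5 to 54.5 CPM in the higher set and 0 to 11.1 CPM in the lower set (2.81 ± 1.00). Tnnc1, the slow and cardiac troponin C, was 30.4 to 52.6 CPM and 0 to 17.7 CPM (2.61 ± 1.11). In each of the 3 troponins FLExDUX4 runner 2 was the highest mouse, and FLExDUX4 runner 3 the highest of the lower set. Tpm3, slow tropomyosin, which lies along the same filament, was 70.3 to 124 CPM and 8.81 to 47.3 CPM (2.08 ± 0.53). Its reads may be shared with close copies, since the handling of reads with several alignments is not given in the sources used here.

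Ankrd2 and Myoz2 of the slow list act at the Z-disc, where thin filaments are anchored. Ankrd2, a stretch-responsive ankyrin repeat protein (chromosome 19, 42036000 to 42045110, plus strand), was 113 and 115 CPM in WT runners 1 and 4 and 98.3 and 132 CPM in FLExDUX4 runners 1 and 2. The lower set had 46.9 and 12.2 CPM in WT runners 2 and 3 and 41.1 and 8.53 CPM in FLExDUX4 runners 3 and 4 (2.11 ± 0.62). The higher set was tight for this gene, whereas the lower set formed a pair above 40 CPM and a pair near 10 CPM. Myoz2, calsarcin-1, which binds calcineurin at the Z-disc (chromosome 3, 123006206 to 123035015, minus strand), was 74.3 to 126 CPM and 11.9 to 42.6 CPM (1.98 ± 0.42). Of the remaining slow list members, Atp2a2, the slow calcium pump, differed by 1.65 ± 0.22 and Myom3, an M-band protein, by 1.32 ± 0.34.

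**Figure D2:**
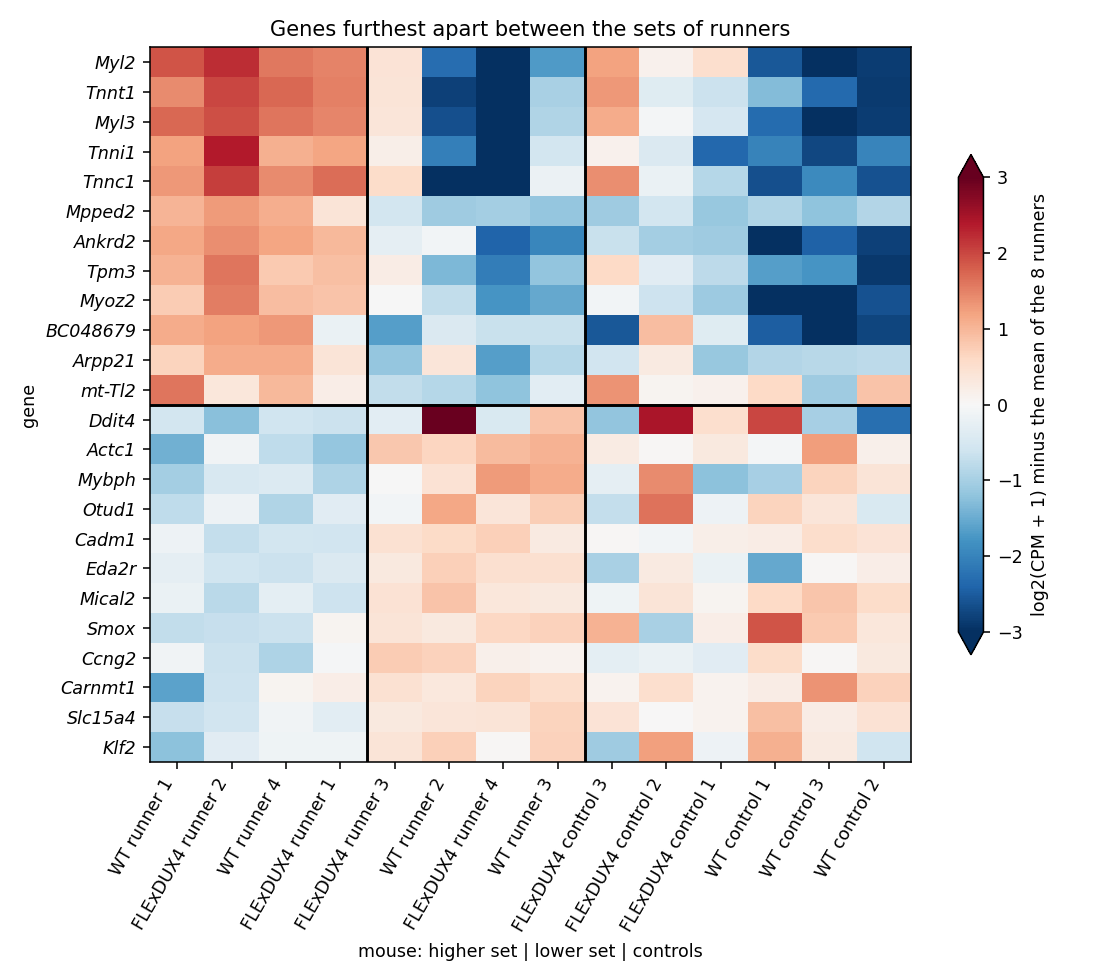
Level of the 12 highest and 12 lowest genes (rows, chosen for their difference between the sets) in each mouse (columns, runners by set and then controls) as log2(CPM + 1) minus the mean of the 8 runners, with the colour scale held at 3 in either direction. The upper block is warm in the first 4 columns, and FLExDUX4 runner 3 has the highest Myl2 of the lower set, at 29.4 CPM.

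The other genes among the 12 highest were of mixed kinds. Mpped2, a metallophosphoesterase, was 6.59 to 13.2 CPM and 1.62 to 3.00 CPM (2.38 ± 0.40), and Arpp21, a cyclic AMP regulated phosphoprotein, was 8.92 to 15.6 CPM and 1.42 to 8.86 CPM (1.81 ± 0.40), with the sets barely apart. BC048679, a gene with no assigned name, differed by 1.86 ± 0.30. The mitochondrial leucine tRNA mt-Tl2 was 18 to 49.4 CPM and 6.26 to 12.4 CPM (1.69 ± 0.25).

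Promoters of genes that lay far apart are shown because members of the slow programme differed together. RefSeq windows of the 250 bases before the start (GRCm38.p6) were found for 11 of the 12 highest and 11 of the 12 lowest genes. The RefSeq starts need not be the starts of the gene spans given above. The Tnni1 windows lie inside its span, and the Myl2 windows lie before its span and do not adjoin it. They were searched on both strands for the MEF2 core, which is CTA, then 4 bases that are each A or T, then TAG, and CAGCTG, an E-box of the kind bound by myogenic factors; both read the same on either strand and do not overlap each other in the windows shown. The MEF2 core was in 167 of 32851 windows of this length (0.508%) and CAGCTG in 4271 (13%). Some genes have several windows, so the 11 highest genes had 24 and the 11 lowest had 11. The MEF2 core was in 1 of the 24 windows (4.17%) and 1 of the 11 (9.09%), those of Myoz2 and Klf2, and CAGCTG was in 8 (33.3%) and 2 (18.2%), which belong to 5 and 2 genes. Windows of the same gene can overlap and hold the same match, as in Tnni1 and Arpp21, and it is then counted more than once. A match is only a description of the letters. Capitals mark the matches in the windows of Myoz2 (chr3:123034988-123035237, minus strand), which holds both, Tnni1 (chr1:135799171-135799420, plus strand) and, for a gene lower in the higher set, Mybph (chr1:134193198-134193447, plus strand).
Myoz2: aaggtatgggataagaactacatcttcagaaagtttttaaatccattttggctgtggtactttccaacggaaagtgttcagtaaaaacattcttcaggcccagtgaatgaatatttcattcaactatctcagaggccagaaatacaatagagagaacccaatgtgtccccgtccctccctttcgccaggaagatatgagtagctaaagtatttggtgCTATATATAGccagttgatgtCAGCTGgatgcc
Tnni1: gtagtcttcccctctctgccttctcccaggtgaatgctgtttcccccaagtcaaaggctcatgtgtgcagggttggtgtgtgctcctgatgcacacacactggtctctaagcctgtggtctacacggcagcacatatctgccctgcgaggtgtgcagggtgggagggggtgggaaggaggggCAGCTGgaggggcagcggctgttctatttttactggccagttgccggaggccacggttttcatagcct
Mybph: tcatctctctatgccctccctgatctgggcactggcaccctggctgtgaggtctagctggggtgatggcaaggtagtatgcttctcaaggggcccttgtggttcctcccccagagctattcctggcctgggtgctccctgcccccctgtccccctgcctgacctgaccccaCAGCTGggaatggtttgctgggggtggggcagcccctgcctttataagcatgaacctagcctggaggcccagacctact

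Fast-fibre contractile genes lay on the other side by smaller steps. All 15 tested members were below 0, with a median of -0.41, and 6 had sets without overlap in that direction. Mybpc2, fast myosin-binding protein C (chromosome 7, 44501699 to 44524656, minus strand), was 1247 and 1328 CPM in WT runners 1 and 4 and 1363 and 1062 CPM in FLExDUX4 runners 1 and 2, against 1979, 2175, 2043 and 2093 CPM in WT runners 2 and 3 and FLExDUX4 runners 3 and 4. The sets were well apart and the lower set was tight (-0.73 ± 0.13). Actn3, the fast Z-disc actinin, was 1702 to 2889 CPM and 2933 to 3747 CPM (-0.65 ± 0.15), with the highest mouse of one set next to the lowest of the other. Pvalb, parvalbumin, the calcium buffer of the fastest fibres, overlapped, at 3946 to 6432 CPM and 6410 to 9496 CPM (-0.57 ± 0.16). The fast troponins Tnni2 (-0.23 ± 0.14) and Tnnc2 (-0.24 ± 0.14) overlapped too.

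The 12 genes lowest in the higher set were mostly outside the contractile lists. Actc1, cardiac actin (chromosome 2, 114047282 to 114053548, minus strand), was 19.9 and 32.7 CPM in WT runners 1 and 4 and 24.4 and 51.5 CPM in FLExDUX4 runners 1 and 2, against 87.9 and 117 CPM in WT runners 2 and 3 and 99.2 and 109 CPM in FLExDUX4 runners 3 and 4. The sets were clearly separate (-1.71 ± 0.22) and reads could be shared with close copies. Mybph, myosin-binding protein H, was 3.95 to 6.53 CPM and 8.99 to 23.5 CPM (-1.66 ± 0.33). Cadm1, a cell adhesion molecule, was 11.5 to 17.6 CPM and 24.1 to 33.1 CPM (-1.05 ± 0.21), and Eda2r, a receptor of the tumour necrosis factor family, was 10.2 to 13.4 CPM and 20.4 to 27.6 CPM (-1.04 ± 0.22). Smox, spermine oxidase, was 134 to 238 CPM and 273 to 363 CPM (-0.98 ± 0.16). Mical2, an actin oxidising enzyme, was 15.0 to 23.5 CPM and 33.4 to 50.0 CPM (-1.0 ± 0.19). The remaining 5 besides Ddit4, which are Otud1, Ccng2, Carnmt1, Slc15a4 and Klf2, differed by -0.90 to -1.18. None of the 12 had a called difference with running in the edgeR fit of all 14 mice. That fit called 0.55% of 11088 genes higher and 0.307% lower, so nothing is read from this count.

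Transcription factors and signalling proteins linked to fibre type were divided. Of 29 tested, 11 were above 0, 2 were higher and 6 lower without overlap, and the median was -0.15. Vgll2, a TEAD cofactor of muscle, was 120 and 91.6 CPM in WT runners 1 and 4 and 86.7 and 105 CPM in FLExDUX4 runners 1 and 2, against 75.1, 44.4, 75.2 and 32.7 CPM in WT runners 2 and 3 and FLExDUX4 runners 3 and 4 (0.84 ± 0.24). Maf, one of the large Maf factors of IIb fibres, was 387 to 542 CPM and 687 to 826 CPM, again with no overlap (-0.63 ± 0.13). Nfatc4, a calcineurin-activated factor that averaged under 5 CPM in runners, differed by 1.44 ± 0.61. Nfatc2 went the other way with overlapping sets, at 4.41 to 6.71 CPM and 3.70 to 15.0 CPM (-0.61 ± 0.38). Sox6, a repressor of slow genes, overlapped at 118 to 169 CPM and 153 to 175 CPM (-0.26 ± 0.13), as did the glycolytic fibre factor Tbx15 (-0.22 ± 0.14) and Prox1 (0.89 ± 0.50), a slow-fibre homeobox factor at under 7 CPM in every runner.

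**Figure D3:**
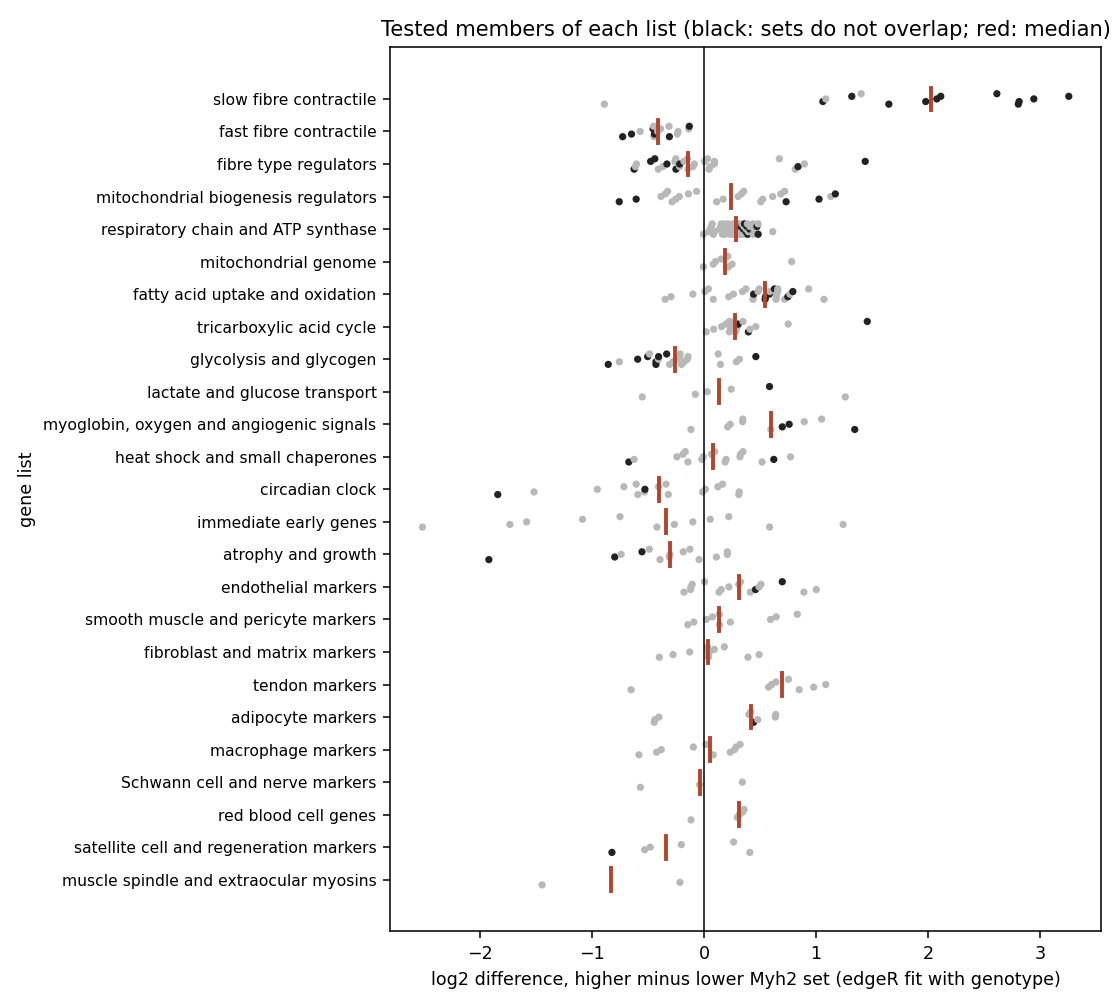
Log2 difference, higher minus lower Myh2 set (horizontal), of every tested member of each gene list (vertical), black where the sets do not overlap, with the list median in red. The slow-fibre list stands furthest to the right with a median of 2.03, the fast-fibre list lies at or below -0.13, and the respiratory chain list clusters just right of 0 with a median of 0.29.

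Genes of oxidative metabolism were higher by modest amounts across whole lists. Of 67 respiratory chain and ATP synthase genes, 66 were above 0 with a median of 0.29, and 11 had sets without overlap. Cox7a1, the muscle subunit of cytochrome oxidase, was 521 to 777 CPM in the higher set and 349 to 519 CPM in the lower set (0.48 ± 0.14). Sdhb of complex II, the list's widest gap, was 653 and 743 CPM in WT runners 1 and 4 and 437 and 625 CPM in FLExDUX4 runners 1 and 2, against 420, 390, 447 and 339 CPM (0.61 ± 0.14). There the sets overlapped, since FLExDUX4 runner 1 lay below FLExDUX4 runner 3. All 20 genes of the citric acid cycle were above 0 (median 0.27), and 3 did not overlap: Idh2, Idh3b (0.31 ± 0.12) and Idh3g (0.40 ± 0.12).

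Idh2, the mitochondrial NADP-dependent isocitrate dehydrogenase (chromosome 7, 80094846 to 80115392, minus strand), stood out of its list. It was 242 and 143 CPM in WT runners 1 and 4 and 96.9 and 158 CPM in FLExDUX4 runners 1 and 2, against 61.3 and 43.7 CPM in WT runners 2 and 3 and 92.6 and 34.3 CPM in FLExDUX4 runners 3 and 4 (1.46 ± 0.43). The mice on either side of the Myh2 threshold were also next to each other here. Of 8 tested protein-coding genes of the mitochondrial genome, 7 were above 0 with a median of 0.18. None had separate sets, and nothing is read from that beside 2.99% and 2.8% of all genes. The level of mt-Co1 was 5172 to 7353 CPM and 4501 to 6195 CPM (0.25 ± 0.15). With the mitochondrial share of counts as a further term, mt-Co1, mt-Nd2 and mt-Nd5 passed to the other side of 0.

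Fatty acid uptake and oxidation had the largest median of the energy lists. Of 31 genes, 28 were above 0 (median 0.55) and 7 did not overlap. Cd36, the fatty acid transporter, was 184 and 175 CPM in WT runners 1 and 4 and 168 and 202 CPM in FLExDUX4 runners 1 and 2, against 128, 85.9, 132 and 76.8 CPM in WT runners 2 and 3 and FLExDUX4 runners 3 and 4. Its sets were separate, with a difference of 0.79 ± 0.16. Fabp3, which carries fatty acids in the cytosol, was 231 to 592 CPM and 121 to 325 CPM with overlap (1.07 ± 0.36), because FLExDUX4 runner 1 was low. Plin5 of the lipid droplet (0.93 ± 0.35) and Lpl, lipoprotein lipase (0.77 ± 0.39), overlapped as well.

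Glycolysis and glycogen genes were lower as a list, with 5 of 24 above 0, a median of -0.26, and 7 lower and 1 higher without overlap. Phka1, a phosphorylase kinase subunit, was 117 to 158 CPM and 180 to 248 CPM (-0.59 ± 0.14). Fbp2, muscle fructose bisphosphatase, was 4.03 to 11.8 CPM and 12.2 to 18.8 CPM (-0.86 ± 0.30). Ldha, the lactate dehydrogenase of fast muscle, was 522 to 936 CPM and 943 to 1234 CPM (-0.50 ± 0.15), whereas Ldhb, its oxidative counterpart, was 85.7 to 184 CPM and 22.5 to 102 CPM with overlap (1.26 ± 0.53). Gbe1, the glycogen branching enzyme, was the 1 higher gene (0.46 ± 0.15). The lactate transporters divided in the same manner, with Slc16a1 at 50.3 to 66.6 CPM and 30.0 to 48.2 CPM (0.58 ± 0.17) and Slc16a3 of glycolytic fibres at 86.9 to 128 CPM and 123 to 191 CPM with overlap (-0.55 ± 0.16).

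Regulators of mitochondrial content were divided. Of 24, 14 were above 0 (median 0.24), 3 were higher and 2 lower without overlap. Sirt3, the mitochondrial deacetylase (chromosome 7, 140863666 to 140882309, minus strand), was 16.8 to 20.1 CPM in the higher set and 7.49 to 9.38 CPM in the lower set (1.17 ± 0.25), with little spread in either. Ppara, the lipid-sensing nuclear receptor, was 14.5 to 17.8 CPM and 5.67 to 10.8 CPM (1.03 ± 0.27), and Perm1, a muscle coactivator of energy genes, differed by 0.73 ± 0.16. Prkag3, the AMPK subunit of glycolytic fibres, was 44.8 and 58.8 CPM in WT runners 1 and 4 and 38.4 and 48.9 CPM in FLExDUX4 runners 1 and 2, against 61.3, 84.5, 70.1 and 107 CPM (-0.76 ± 0.17), and the AMPK subunit Prkab2 differed by -0.61 ± 0.15. Ppargc1a, the coactivator PGC-1α that drives mitochondrial biogenesis, was 65.8 to 78.5 CPM and 43.9 to 78.8 CPM, with the highest mouse of all in the lower set (0.30 ± 0.16).

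Myoglobin and vascular growth signals were mostly higher, with 10 of 11 above 0, a median of 0.60 and 3 without overlap, which were Mb, Vegfa and Kdr. Mb, the oxygen store of oxidative fibres (chromosome 15, 77015487 to 77050670, minus strand), was 3786 and 4120 CPM in WT runners 1 and 4 and 1995 and 3806 CPM in FLExDUX4 runners 1 and 2, against 1683 and 1170 CPM in WT runners 2 and 3 and 1848 and 650 CPM in FLExDUX4 runners 3 and 4. The gap between FLExDUX4 runners 1 and 3 was small beside the mean difference of 1.34 ± 0.39. Vegfa, the main capillary growth factor, was 79.5 to 147 CPM and 46.2 to 71.2 CPM (0.76 ± 0.20), and its receptor Kdr was 53.7 to 91.0 CPM and 33.7 to 49.2 CPM (0.70 ± 0.17).

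**Figure D4:**
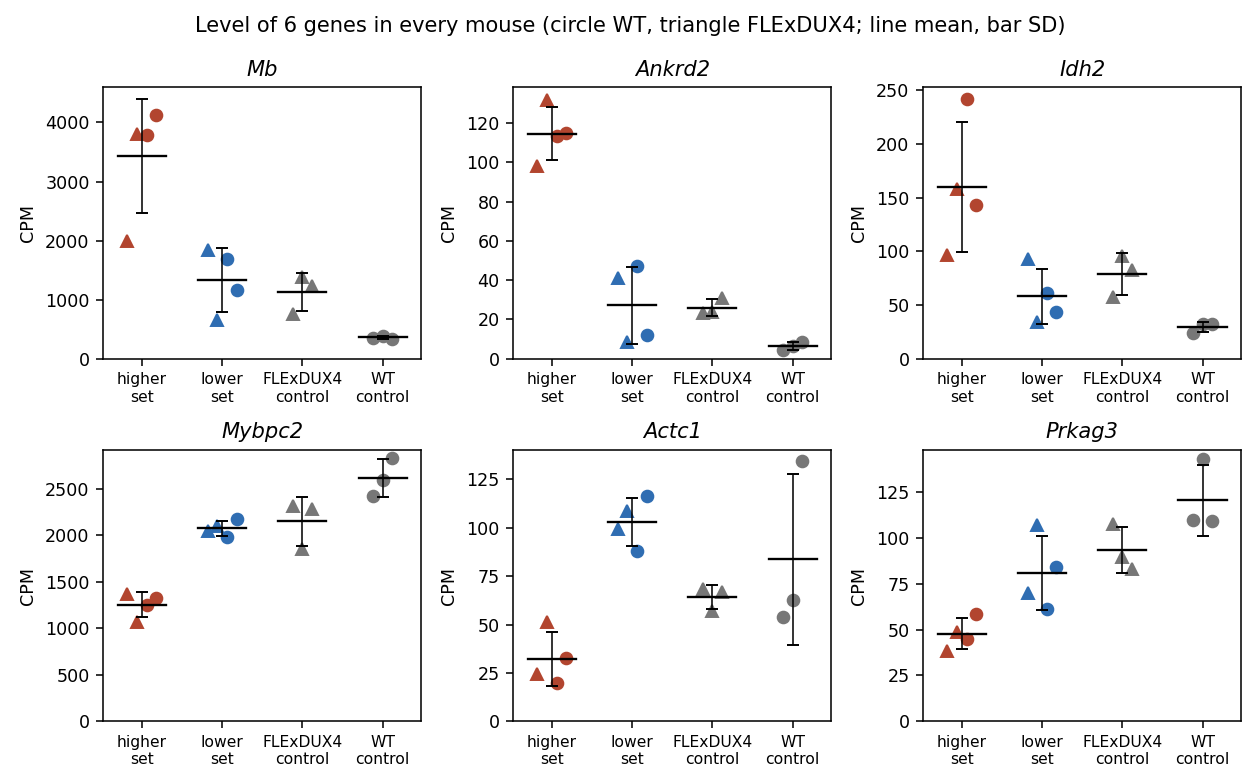
CPM of 6 genes (one panel each, linear axis from 0) in the runner sets and the control groups, with circles for WT, triangles for FLExDUX4, a line at the mean and a bar for the SD. Mb, Ankrd2 and Idh2 are higher and Mybpc2, Actc1 and Prkag3 lower in the higher Myh2 set, and for Mb the lowest mouse of the higher set (1995 CPM) lies near the highest of the lower set (1848 CPM).

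Small chaperones that bind muscle filaments split both ways. Hspb6 was 899 to 1122 CPM and 571 to 725 CPM (0.62 ± 0.13), while Hspb8 was 90.0 to 109 CPM and 124 to 209 CPM (-0.67 ± 0.15), neither with overlap. Over all 18 heat shock genes the median was 0.08 with 10 above 0. Hspb7 was 60.9 to 100.1 CPM and 35.7 to 81.7 CPM with overlap (0.77 ± 0.18).

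Genes that vary with time of day and recent activity were uneven between mice. Per1, a clock repressor also induced by stress hormones, was 3.36 and 1.59 CPM in WT runners 1 and 4 and 1.94 and 2.95 CPM in FLExDUX4 runners 1 and 2, against 19 and 10.3 CPM in WT runners 2 and 3 and 5.69 and 3.98 CPM in FLExDUX4 runners 3 and 4 (-1.84 ± 0.44). Of 17 clock genes 5 were above 0 (median -0.41), and the second gene without overlap was Nr1d2 (-0.53 ± 0.17). The immediate early genes had 4 of 12 above 0 (median -0.34) and none with separate sets. Over all genes 2.99% and 2.8% had separate sets in either direction, so nothing is read from that absence. Nr4a1 was 25.4 to 71.5 CPM and 53.6 to 158 CPM (-1.09 ± 0.54), and Atf3 was 1.2 to 5.10 CPM and 1.50 to 17.4 CPM (-1.58 ± 0.52), with WT runner 2 the highest mouse in both. The labels give no hour of collection and no time since the last run, so these cannot be told apart from the Myh2 share.

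Genes of atrophy and growth restraint were lower on balance, with 3 of 14 above 0 and a median of -0.31. Ddit4, an inhibitor of mTORC1 induced by stress, was 9.28 and 9.0 CPM in WT runners 1 and 4 and 8.72 and 5.37 CPM in FLExDUX4 runners 1 and 2, against 116 and 26.1 CPM in WT runners 2 and 3 and 11.1 and 10.1 CPM in FLExDUX4 runners 3 and 4. The difference of -1.92 ± 0.77 thus came mostly from the WT mice of the lower set. Mstn, myostatin, was 20.9 to 63.6 CPM and 66.4 to 81.2 CPM (-0.80 ± 0.23), and Trim63, the ubiquitin ligase MuRF1, was 127 to 219 CPM and 225 to 303 CPM (-0.56 ± 0.14). Foxo1 overlapped, at 15.2 to 27.3 CPM and 25.2 to 68.2 CPM (-0.74 ± 0.33).

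Markers of other cell types were compared in the same way. Of 17 endothelial markers 13 were above 0 (median 0.31), 2 without overlap (Kdr and Emcn), and their sum was 343 to 468 CPM in the higher set and 245 to 400 CPM in the lower set. The tendon list had 7 of 8 above 0 with a median of 0.70 and sums of 134 to 230 CPM and 107 to 180 CPM. It held no gene with separate sets, and nothing is read from that beside 2.99% and 2.8% of all genes. Comp and Mkx averaged under 1 CPM in runners. The smooth muscle and pericyte list (8 of 10 above 0, median 0.14) had sums of 361 to 443 CPM and 322 to 407 CPM. Fibroblast genes (9 of 12, median 0.04) summed to 1356 to 1857 CPM and 1367 to 1735 CPM, and macrophage genes (6 of 10, median 0.05) to 108 to 132 CPM and 77.2 to 176 CPM. Adipocyte genes (6 of 9, median 0.42) summed to 1268 to 3061 CPM and 1817 to 2400 CPM, and Adipoq was 1.38 to 19.4 CPM in the higher set, so the mice within 1 set ranged widely. Red blood cell genes (4 of 5, median 0.31) summed to 1133 to 1738 CPM and 476 to 1836 CPM. The Schwann cell list had 1 of 3 above 0 (median -0.04) and sums of 40.7 to 54.7 CPM and 40.8 to 50.8 CPM. The satellite cell list had 2 of 6 (median -0.34) with sums of 32.3 to 51.1 CPM and 43.8 to 66.8 CPM, where Chrna1, the acetylcholine receptor subunit, did not overlap (-0.82 ± 0.30). Of the spindle and extraocular list, 2 were tested and Calb2 was at 0 in the runners. Every one of these sums overlapped between the sets, and the part of other cells in the differences was not tested. Nfatc4, Perm1, Prkab2, Idh3b, Idh3g, Gbe1, Nr1d2, Atp2a2 and Myom3 were named after their values were seen.

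The WT and FLExDUX4 runners give separate views of the division, since they share no mouse. For each of 10018 genes without the 4 myosins, the mean log2(CPM + 1) of the 2 higher mice minus the 2 lower mice was taken within each genotype. The sign was the same in both for 5690 genes (56.8%). Differences over 1 were found for 286 genes in WT and 222 in FLExDUX4 runners, and 44 were in both, while differences under -1 were found for 186 and 142 genes, with 12 in both. The shared part is thus 15.4% of the WT list and 19.8% of the FLExDUX4 list upward, and 6.45% and 8.45% downward. Across these genes, which are not independent, r was 0.21. No test was made, because measured counts chose the sets.

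Genotype among controls uses none of the 8 runners, so it is a labelled comparison in which the same genes can be tested. FLExDUX4 against WT controls gave 23 genes higher (0.24% of 9593) and 0 lower (0.0%) by edgeR, with 524 at an unadjusted p under 0.05. Apart from Myh2 and Myh1, 21 remained, and all 21 were above 0 between the runner sets, 15 of them without overlap, with a median of 1.32. Among all 9343 genes tested in both fits, 57.3% had the same sign. Of the 286 genes that were higher in the higher set without overlap and tested in controls, 202 (70.6%) were above 0 in FLExDUX4 against WT controls, and 15 of them were called; of 272 lower without overlap, 198 (72.8%) were below 0. The control genotypes also differ in Myh2 share, so genotype and that share cannot be told apart in controls. Called counts were 15 without WT control 3 and 27 without FLExDUX4 control 3. In a fit of all 14 mice, which shares its spread with the runners, 0 genes were called, with 554 at an unadjusted p under 0.05, and DESeq2 on the 6 controls called 35.

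Of the slow-fibre list, 14 of 14 were above 0 in FLExDUX4 against WT controls and 7 were called higher, with a list median of 2.07. Lists of other cell types were divided in the same mice. With TMM factors, fibroblast (3 of 12 above 0, median -0.10), macrophage (4 of 11, median -0.14) and satellite cell genes (3 of 7, median -0.20) were lower on balance. With library sizes from spike-ins, which moved the median of all genes by 0.31, these medians became 0.21, 0.20 and 0.11. Adipocyte genes were near level (5 of 9, median 0.007). Red blood cell genes (5 of 5, median 0.42) and Schwann cell genes (2 of 2, median 0.48) were higher, as were the 3 lists that follow. Tendon markers (6 of 8 above 0, median 1.09) summed to 78.3 to 116 CPM in WT and 136 to 245 CPM in FLExDUX4 controls, and 1 of them, Chad, a cartilage matrix protein, rose by 2.41 ± 0.40 (edgeR adjusted p = 0.00256). Endothelial markers (14 of 17, median 0.55) summed to 239 to 269 CPM and 296 to 356 CPM, and smooth muscle and pericyte markers (6 of 9, median 0.61) to 292 to 324 CPM and 325 to 362 CPM, with no gene called. None of these 3 sums overlapped, and their part in the fibre gene differences was not tested. The FLExDUX4 mean of Myl2 was 35.8 CPM ± 14.5 (SD, n = 3) and the WT mean 1.90 ± 1.19 (n = 3), which are 4.16 ± 0.40 apart on the log2 scale (edgeR adjusted p = 5.78e-06). Myoz2 averaged 4.2 ± 1.78 and 29.4 ± 10.6 CPM (2.79 ± 0.35, edgeR adjusted p = 6.32e-05). Ankrd2 rose from 6.35 ± 2.0 to 26 ± 4.18 CPM (2.06 ± 0.31, edgeR adjusted p = 0.000558). In these 3 genes the FLExDUX4 controls lay between the WT controls and the higher runner set. All 3 were chosen for a high level in that set, so nothing is read from the order. Tnnc1, chosen in the same way, did not keep it, with up to 32.5 CPM in FLExDUX4 controls and from 30.4 CPM in the higher set. The slow troponins were less certain: Tnnc1 was called at 3.51 ± 0.64 (edgeR adjusted p = 0.0333, up to 0.562 without WT control 1), Tnnt1 was not (2.62 ± 0.78, adjusted p = 0.805), and Tnni1 had too few counts in controls.

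Other control calls were of several kinds. Mb averaged 360.1 CPM ± 25.9 (SD, n = 3) in WT and 1125 ± 325 (n = 3) in FLExDUX4 mice (1.65 ± 0.18, edgeR adjusted p = 0.000747). Idh2 averaged 29.5 ± 4.43 and 78.7 ± 19.8 CPM (1.43 ± 0.20, edgeR adjusted p = 0.00027). Mybpc1, slow myosin-binding protein C (1.09 ± 0.13), Actn2, the Z-disc actinin of all fibres (1.43 ± 0.16), Atp1b1, a sodium pump subunit (1.19 ± 0.15), Fhl1, a LIM-domain protein (1.17 ± 0.15), and Lmod2, a thin filament leiomodin (2.05 ± 0.25), all had edgeR adjusted p values of 2.12e-05 to 0.00012. In the runner sets these 5 differed by 0.87 ± 0.43, 0.97 ± 0.38, 1.26 ± 0.35, 1.24 ± 0.20 and 0.79 ± 0.35 in that order, and Mybpc1 and Lmod2 overlapped there. Ldhb (2.67 ± 0.36, edgeR adjusted p = 0.00105), Fabp3 (0.97 ± 0.17, adjusted p = 0.00526) and Ppara (1.71 ± 0.36, adjusted p = 0.0365) were called too. Those 3 calls were lost in 1, 3 and 6 of the 6 fits that left out 1 control, with edgeR adjusted p up to 0.0581 without WT control 3, 0.0853 without FLExDUX4 control 2 and 0.21 without FLExDUX4 control 2. Fxyd6 (1.88 ± 0.26), Homer2 (1.26 ± 0.25) and the unnamed gene model Gm15543 (1.55 ± 0.31) were called as well, with edgeR adjusted p values of 0.000186, 0.0161 and 0.0176, and were named after their values were seen. No fast-fibre gene of 15 and no glycolysis gene of 24 was called. Over all 9593 genes 0.24% were called higher and 0 lower, so nothing is read from that. The list medians of -0.18 and -0.22 became 0.13 and 0.08 with library sizes from spike-ins. That scaling moved the median of all genes by 0.31.

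**Figure D5:**
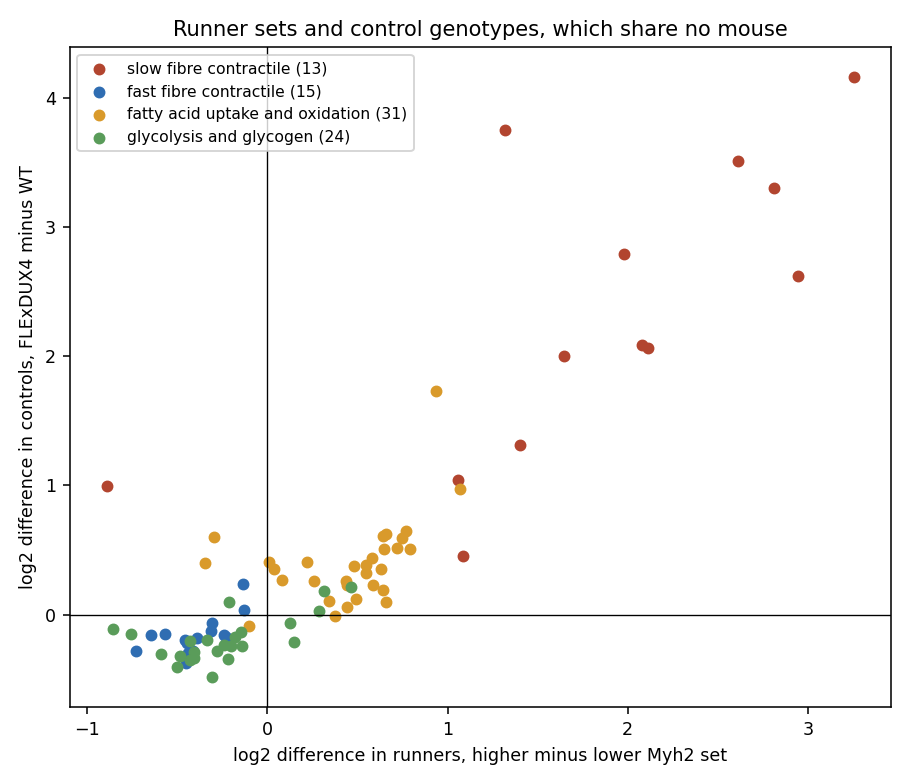
Log2 difference between the runner sets (horizontal) and between FLExDUX4 and WT controls (vertical) for the tested members of 4 lists, 1 point per gene. The 2 axes share no mouse; slow-fibre genes reach 3.26 and 4.16 for Myl2 at the upper right, with Sln at -0.89 the exception on the left.

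Genotype among the 8 runners was tested with the Myh2 set as a term. FLExDUX4 against WT runners gave 0 genes higher (0.0%) and 1 lower (0.00998% of 10022), with 422 at an unadjusted p under 0.05. The gene was Slc25a25, a mitochondrial ATP-Mg/phosphate carrier (chromosome 2, 32414487 to 32451445, minus strand). It was 1.78 and 4.59 CPM in WT runners 1 and 4 and 45.7 and 28.6 CPM in WT runners 2 and 3, against 0.388 and 1.88 CPM in FLExDUX4 runners 1 and 2 and 3.60 and 3.70 CPM in FLExDUX4 runners 3 and 4. It fell by 2.83 ± 0.43 on the log2 scale in FLExDUX4 runners (edgeR adjusted p = 0.00721), although the genotypes overlapped across sets. The highest values were those of the WT mice of the lower set, and the difference between the sets was -3.01 ± 0.43. Without the set as a term the edgeR adjusted p was 1, and it rose to 0.284, 0.364 and 0.411 without FLExDUX4 runner 3, FLExDUX4 runner 4 and WT runner 2. The next genes by p, Tnfaip2 (-0.71, edgeR adjusted p = 0.30) and Rasd2 (-1.11, adjusted p = 0.347), were not called.

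Running itself, averaged over genotype and fitted on all 14 mice, raised 61 genes (0.55% of 11088) and lowered 34 (0.307%). These use the same runners as the sets, so the values stand side by side only. Of the slow-fibre list, Casq2 and Myom3 were called among 16 tested, with a list median of 1.92. The log2 differences of Myl2 (2.37 ± 1.04, edgeR adjusted p = 0.397), Ankrd2 (2.47 ± 0.68, adjusted p = 0.138) and Mb (1.89 ± 0.42, adjusted p = 0.0777) were not called, and in each the runners spread over a wide range. Egln3, an oxygen-sensing hydroxylase, rose by 2.88 ± 0.41 (edgeR adjusted p = 0.0122), from 2.73 to 9.24 CPM in the 6 controls to 15.8 to 73.1 CPM in the 8 runners with no overlap, while the runner sets overlapped (0.89 ± 0.41). Kdr rose by 0.90 ± 0.18 (adjusted p = 0.0199), Fgf1 by 1.48 ± 0.31 (0.0199) and Cd36 by 1.13 ± 0.23 (0.0451).

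Of the energy lists, 12 of 67 respiratory chain genes and 8 of 31 fatty acid genes were called higher with running. In these lists 67 and 27 genes were above 0, and 0 of either were called lower. Cox7a1 rose by 0.65 ± 0.13 (edgeR adjusted p = 0.0122), Uqcrq of complex III by 0.59 ± 0.13 (0.0252), mt-Co1 by 0.49 ± 0.12 (0.0402), Plin5 by 1.38 ± 0.33 (0.0334) and Slc16a1 by 0.65 ± 0.16 (0.0406). Hspb7 rose by 1.50 ± 0.27 (edgeR adjusted p = 0.0319) and the pericyte gene Rgs5 by 0.46 ± 0.11 (0.0393). The clock genes Nr1d2, Tef and Rora were called lower, 3 of 18 tested. Gpd1, 1 of 24 glycolysis genes, and Mylk2, 1 of 15 fast-fibre genes, were called lower too. None of the 11 running calls named with values here held in all 14 fits that left out 1 mouse, and Cox7a1 lost its call only without FLExDUX4 control 1 (adjusted p = 0.0541). Counts of calls ran from 17 without FLExDUX4 control 1 to 285 without FLExDUX4 runner 4.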

How the data were processed

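Gene counts from 14 triceps libraries (QuantSeq 3′ FWD) were used. The deposited table holds the authors' raw read counts per gene, without normalization; per the submitters' processing notes the tools were cutadapt 1.16, FastQC 0.11.7, STAR 2.5.3a and featureCounts 1.6.2 from Subread, and the builds were GRCm38 and GRCh38. The gene annotation, strand setting and handling of reads with several alignments are not given in the sources used here. The 92 ERCC and 7 SIRV spike-in rows were set aside, leaving 52550 genes. Replicates are numbered in accession order and pair no mice. Where nothing says otherwise, each mouse is 1 replicate, and p-values measure the spread between mice. Within each labelled group, no library looked like a copy of another. Count tables of replicates differed by a chi-square of at least 5.89 per degree of freedom, and pairs across groups were not compared.

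In R 4.3.3, edgeR 4.0.16 was fitted with TMM factors, filterByExpr at a minimum count of 10 and robust quasi-likelihood tests, 2-sided, with Benjamini-Hochberg adjustment over all tested genes at 0.05. The sets were compared in the 8 runners with genotype as a term, as a description. Genotype in runners (with the set as a term), genotype in the 6 controls and running averaged over genotype (14 mice) were tested. The common biological coefficients of variation were 0.252 for both runner fits, 0.257 and 0.288. In simulated data, 80%, 75%, 62% and 95% of genes changed by 1 on the log2 scale were recovered. These stand for the sets, genotype in runners, genotype in controls and running, in that order. Of genes changed by 2, 96%, 100%, 97% and 100% were recovered. False calls numbered 10, 5, 14 and 6 of 186, 180, 173 and 201 calls. The changed genes were drawn only from genes with many counts, so recovery of genes with few counts was not measured.

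The members, the 25 gene lists and the naming rule were chosen with earlier results of these data known; 1 item is not reported here. Named genes were the 12 highest and 12 lowest log2 differences among genes with separate sets and at least 10 CPM in the set where they are higher, leaving out the 4 myosins and unnamed gene models; up to 4 members per list with the widest difference and a mean of at least 5 CPM in runners; a short fixed set (Mb, Ppargc1a, slow and fast troponins, Cdkn1a, Pvalb, Actn3, Sox6, Tbx15, Prox1); and up to 8 called genes per genotype test, or 3 uncalled. Alternatives were RLE factors, other count filters, counts without mitochondrial genes and the 4 myosins, spike-in library sizes, DESeq2 1.42.0, limma-voom (limma 3.58.1), other terms and samples, other pseudocounts, and each mouse left out. After the data were seen, leaving out both mice nearest the threshold and adding the mitochondrial share as a term were added. Gene coordinates are from GENCODE on GRCm38, matched by Ensembl identifier. Intervals and levels cover reads without molecular identifiers.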

Additional observations from a re-analysis of the deposited data

Results flagged for a closer look

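In 9 of 264 sets of 4 runners (3.41%), 1 mouse lay far from the other 3, with a gap to its nearest neighbour above Dixon's critical value for 4 mice; chance gives about 1 in 20. In the higher Myh2 set, FLExDUX4 runner 2 was highest for Tnni1 at 54.5 CPM (21.5 to 23.5 in the others) and lowest for Ddit4 at 5.37 CPM (8.72 to 9.28). FLExDUX4 runner 1, the mouse closest above the threshold, was lowest for Mb at 1995 CPM (3786 to 4120), and highest for Smox at 238 CPM (134 to 142) and for Car3, carbonic anhydrase 3, at 2548 CPM (1019 to 1220). WT runner 1 was highest for Vegfa at 147 CPM (79.5 to 86.3). In the lower set, WT runner 2 was highest for Ddit4 at 116 CPM (10.1 to 26.1) and for Foxo1 at 68.2 CPM (25.2 to 28.9), and FLExDUX4 runner 3, the mouse closest below the threshold, was highest for Mpped2 at 3.00 CPM (1.62 to 1.85).

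Among 128 genes checked, Egr1, an immediate early transcription factor, alone went in opposite directions in the genotypes without overlap in either. The mean of the higher minus the lower Myh2 set was 8.40 CPM in WT runners and -4.71 CPM in FLExDUX4 runners, with every mouse of each genotype on the stated side. This difference between genotypes was not tested.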

How the results depend on the processing

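Genes called between the sets (72) numbered 202 with no low-count filter, 44 with spike-in library sizes, of which 33 were higher, 168 with DESeq2, 118 with limma-voom, 114 without the mice nearest the threshold and 7 with the mitochondrial share as a term. Leaving out 1 mouse gave 10 (without FLExDUX4 runner 2) to 121 (without FLExDUX4 runner 3). Separate sets (581 genes) numbered 1747 without the mice nearest the threshold and 855 to 1194 with 1 mouse left out; smaller sets overlap less by construction. With the mitochondrial share as a term, mt-Co1 (-0.0197), mt-Nd5 (-0.0514), mt-Nd2 (-0.112), Rgs5 (-0.0197) and Tnmd (-0.026) changed sign. Genotype in runners (1 call) gave 9 with no filter, 0 with no set term, 0 without the mice nearest the threshold and 0 to 2 with 1 mouse left out. Genotype in controls (23) gave 52 with no filter, 60 with spike-ins, 35 with DESeq2, 0 in a fit of all 14 mice and 15 to 27 with 1 control left out. Running (95) gave 291 with no filter, 434 with spike-ins (423 higher and 11 lower), 273 with DESeq2, 281 with the runner sets as further groups and 17 to 285 with 1 mouse left out. Within each genotype, r was 0.292 at a pseudocount of 5 CPM and 0.405 for genes of at least 10 CPM, where 60.1% had the same sign. Spike-in sizes moved the median of all genes by 0.04 between the sets, 0.22 with running and 0.31 in controls. Where not said, the cause was not tested. No paired analysis was possible because replicate numbers only follow the accession order and the labels pair no mice. With 4 mice a set and 3 to 7 reads per CPM, genes under 5 CPM rest on few reads. Whether small differences in them could be detected was not measured.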

Other observations

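Mitochondrial tRNA genes were not among the lists and were looked at after mt-Tl2 appeared among the 12 highest genes. Of 12 tested, 10 were above 0 between the sets, and 6 had sets without overlap in that direction, beside 2.99% of all tested genes. The median log2 difference was 0.95, beside 0.18 for the protein-coding mitochondrial genes. These values include mt-Tl2, the gene that led to the look, and are a description only. mt-Tq was 53.7 to 104 CPM in the higher set and 16.2 to 44.4 CPM in the lower set (1.34 ± 0.30), mt-Ta 91.0 to 179 CPM and 34.5 to 80.2 CPM (1.02 ± 0.19), and mt-Tp 271 to 576 CPM and 129 to 228 CPM (0.96 ± 0.16). With running, where 0.307% of 11088 genes were called lower, 1 of the 12 was called, mt-Tt, which fell by 1.59 (edgeR adjusted p = 0.0188). These rows lie next to protein-coding mitochondrial genes, and how reads were shared out between neighbours is not given in the sources used here, so whether they count tRNA was not tested.

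Cdkn1a, the cell cycle inhibitor p21, was 14.7 to 45.2 CPM in the higher set and 24.6 to 38.9 CPM in the lower set (-0.19 ± 0.27), and Cfd, the adipocyte protease adipsin, was 7.5 to 147 CPM and 17.1 to 58.4 CPM (0.48 ± 1.00).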
